A study of Homo sapiens with 9 samples.

Results

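The 10 genes described here take up, store, export and sense iron in human cells. They are TFRC, STEAP3 and SLC11A2 (uptake), FTH1, FTL and NCOA4 (storage), SLC40A1 (export), IREB2 and ACO1 (sensing) and HMOX1 (release of iron from heme). They were chosen by gene symbol as genes of this pathway, when earlier results of these data were already known. All 10 were found among the 58395 gene identifiers of each library, and all 10 passed the filter on low counts, which left 16575 genes for testing.

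The cells were MDA-MB-231, an established line from a breast cancer that the labels call triple negative (without estrogen, progesterone and HER2 receptors), and total RNA was sequenced in 3 groups of 3 libraries. The NC group received a nontargeting control siRNA, the SKP2-1 group the siRNA labelled SKP2 siRNA_1 and the SKP2-2 group SKP2 siRNA_2. Cells of all 3 groups were reverse transfected for 96 h and cultured in DMEM with serum and antibiotics, so the controls carry siRNA as well. SKP2 is the F-box protein that brings substrates to the SCF ubiquitin ligase. SKP2 is the target in the title and the sample labels. The design text has ZIP7 there, a zinc transporter encoded by SLC39A7. Nothing states that the replicates are separate cultures, so p-values measure the spread between these libraries, which may be technical.

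Iron bound to transferrin enters cells through the transferrin receptor and is reduced and released from endosomes into the cytosol. There it is used, exported or laid down in ferritin, a shell of heavy and light chains that autophagy can open again. When iron is scarce, the iron regulatory proteins bind hairpins in mRNA called iron-responsive elements. Binding in a 3′ UTR protects the receptor mRNA from decay, and binding in a 5′ UTR blocks translation of ferritin and of the exporter. The former acts on RNA levels, and the latter leaves little trace in them. Many cancer cells carry much transferrin receptor, since ribonucleotide reductase and other enzymes of growth need iron.

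The iron-responsive elements are shown because the regulatory proteins can hold mRNAs that carry them. The protein-coding transcripts of GENCODE 29 (GRCh38) were searched for a C, 5 bases, the loop CAGTGN with a last base other than G, and 5 bases that pair with the first 5, G-T pairs allowed. Only the transcript strand was read. Such a match lies in a UTR of 4 of the 10 genes (40%), against 130 of 19659 protein-coding genes (0.661%). The pattern is that of iron-responsive elements and the 10 were chosen as iron genes. The difference in share therefore follows in part from the choice and is no test. In the 5′ UTR it was found in 3 of the 10, FTH1, FTL and SLC40A1, and in 26 of all genes (0.132%). In the 3′ UTR it was found in 1, TFRC, with 4 copies, and in 104 of all genes (0.529%). Each is shown with 5 further bases on either side. Capitals mark the unpaired C and the loop, and sequences run 5′ to 3′ as DNA letters.
TFRC copy 1: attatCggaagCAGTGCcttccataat
TFRC copy 2: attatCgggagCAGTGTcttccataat
TFRC copy 3: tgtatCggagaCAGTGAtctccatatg
TFRC copy 4: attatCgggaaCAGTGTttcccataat
FTH1: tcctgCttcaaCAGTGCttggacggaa
FTL: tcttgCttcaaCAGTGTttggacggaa
SLC40A1: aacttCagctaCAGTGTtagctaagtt
The loop-side stem of FTH1 and FTL has the same letters. The TFRC copies lie on the minus strand at chr3:196050980-196051006, chr3:196050576-196050602, chr3:196050511-196050537 and chr3:196050464-196050490. The FTH1 element is at chr11:61967575-61967601 (minus strand), that of FTL at chr19:48965336-48965362 (plus strand) and that of SLC40A1 at chr2:189580662-189580688 (minus strand). No match in SLC11A2 says only that this pattern is not in these transcripts, and gene counts do not separate its isoforms. EPAS1, described below as under these proteins, had no match either, so the pattern does not find every such mRNA.

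Libraries held 35.5 to 49.9 M gene counts. SKP2 was 62.1 ± 3.99 CPM (counts relative to library size, scaled between libraries; mean ± SD, n = 3) in NC, 3.58 ± 0.307 with SKP2-1 and 5.96 ± 0.236 with SKP2-2. SLC39A7 was 342 ± 8.38, 343 ± 1.07 and 364 ± 10.3 CPM. Of the mesenchymal markers of this line, VIM stood at 2734 CPM in NC, AXL at 1398, CD44 at 763.7, CAV1 at 538.5 and EGFR at 532.8. SPARC alone among them was low, at 0.416 CPM. ESR1 and PGR, which define hormone receptor positive cells, were at 0.0597 and 0.233 CPM. The summed levels of luminal or epithelial markers, and of markers of other cells, ranged as follows in NC, SKP2-1 and SKP2-2. The 7 luminal genes summed to 579 to 753, 595 to 617 and 600 to 762 CPM, and the 4 lymphoid genes to 0.376 to 0.478, 0.993 to 1.1 and 0.793 to 0.986 CPM. Most of the luminal sum was KRT8 (340 CPM in NC) and KRT18 (281), with EPCAM, CDH1 and GATA3 at 7.93, 12.4 and 11.2. Nearly all of the lymphoid sum was PTPRC (means 0.419, 1.04 and 0.85 CPM). The 3 endothelial genes summed to 3.79 to 4.27, 8.64 to 10.2 and 3.4 to 4.35 CPM, and the 4 hepatocyte genes to 0.444 to 0.59, 0.401 to 0.923 and 0.499 to 0.621 CPM. PECAM1 made up nearly all of the endothelial sum (means 4.03, 9.32 and 3.62 CPM). The group means of CDH5 and VWF reached at most 0.0692 and 0.187 CPM. The 7 erythroid genes were at 0 in every library of NC and SKP2-1 and summed to at most 0.0247 CPM with SKP2-2. Deviations from the group means went together in NC replicate 1 and SKP2-2 replicate 3 (r = 0.716 across genes, which are not independent). The same held for NC replicate 3 and SKP2-2 replicate 1 (r = 0.675) and, less, for NC replicate 2 and SKP2-2 replicate 1 (r = 0.35). Values without the first and without the second of these pairs are given as well.

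Per kb of exon, the ferritin chains were the most abundant of these mRNAs and the exporter the least. In NC the order was FTL (1635 CPM per kb), FTH1 (310), TFRC (79.4), NCOA4 (69.2), ACO1 (42.8), STEAP3 (30.4), IREB2 (9.63), SLC11A2 (6.80), HMOX1 (5.96) and SLC40A1 (0.987). The libraries of TFRC and NCOA4 overlapped, as did those of SLC11A2 and HMOX1, and no other neighbours did. With SKP2-2 the receptor stood sixth in the order, at 12.5 CPM per kb, behind NCOA4, STEAP3 (46.7) and ACO1 (26.9). The FTH1 value depends on the counting. Its exons span 2030 bases, of which 1267 (62.4%) are also exon of BEST1 on the other strand, and the strand setting is not given. No counts were taken over the 763 unshared bases alone. If all counted FTH1 reads lay in them, the NC level would be 826 CPM per kb. The transcript FTH1-201 has 1229 bases, of which 880 (71.6%) are shared and 349 are not. Over those 349 bases the level would be higher still, so the order of FTL and FTH1 is not settled here.

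**Figure D1:**
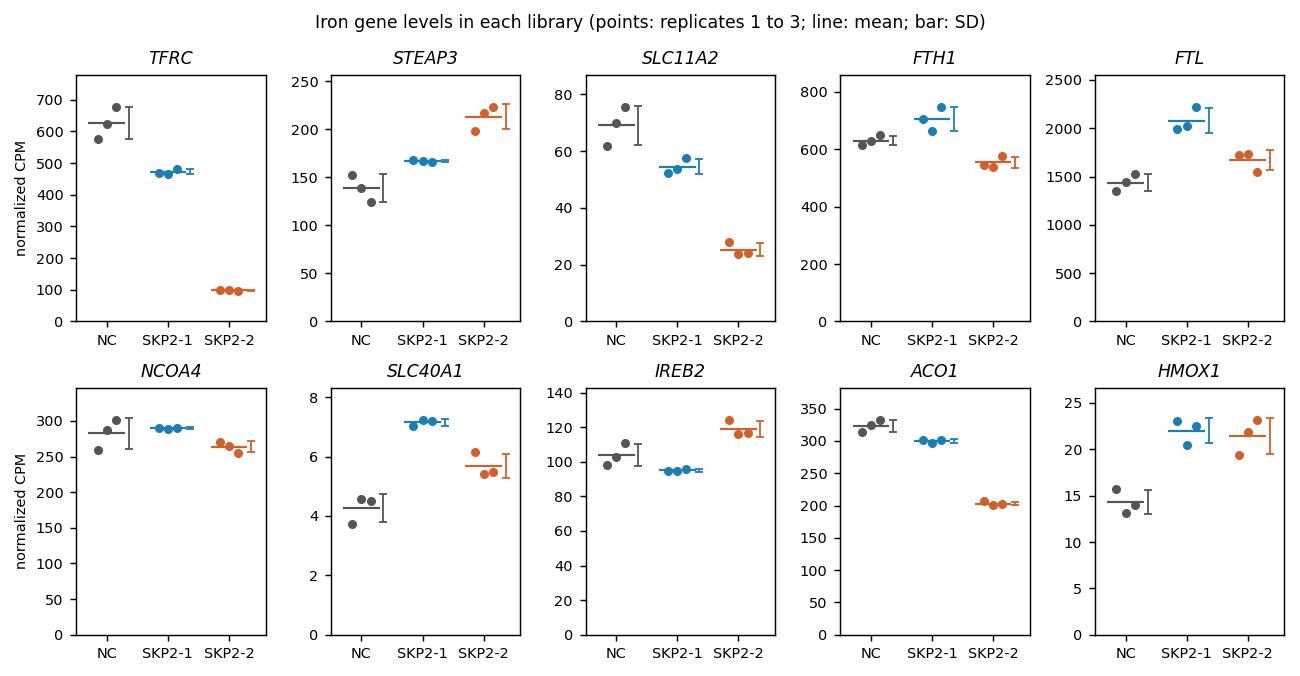
Normalized CPM (vertical axes, from 0) of the 10 iron genes in each library of NC, SKP2-1 and SKP2-2. Points are replicates 1 to 3, lines are means and bars are SD; TFRC and SLC11A2 are lowest with SKP2-2 and lie between with SKP2-1.

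Adjusted p-values here come from edgeR's quasi-likelihood test with Benjamini-Hochberg adjustment over all 16575 genes, and a gene is said to rise or fall when its adjusted p was below 0.05. With SKP2-1, 5 of the 10 genes rose (SLC40A1, HMOX1, FTL, STEAP3 and FTH1) and 4 fell (TFRC, SLC11A2, IREB2 and ACO1). Over all genes 45.5% were called in this comparison, 25% higher and 20.5% lower. With SKP2-2, 5 rose (STEAP3, HMOX1, SLC40A1, FTL and IREB2) and 4 fell (TFRC, SLC11A2, ACO1 and FTH1), against 49.4% of all genes, 25.2% higher and 24.1% lower. Between the siRNAs 9 of the 10 differed, 2 higher and 7 lower with SKP2-2, against 50.5% of all genes, 25.2% higher and 25.3% lower. The groups did not overlap for 9 of the 10 genes in each comparison, against 54.8%, 53.6% and 64% of all genes. Called changes of at least 2-fold numbered 0 of the 10 with SKP2-1 (5.91% of all genes), 2 with SKP2-2 (6.86%) and 2 between the siRNAs (6.96%), TFRC and SLC11A2 in both cases. The median absolute log2 fold change of the 10 was 0.31 with SKP2-1, where that of all genes was 0.26, and 0.49 with SKP2-2, where that of all genes was 0.29. Both siRNAs are set against the same NC libraries, so their changes are not independent of each other. In bulk RNA, fewer cells that express a gene and less of its RNA per cell cannot be told apart.

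**Figure D2:**
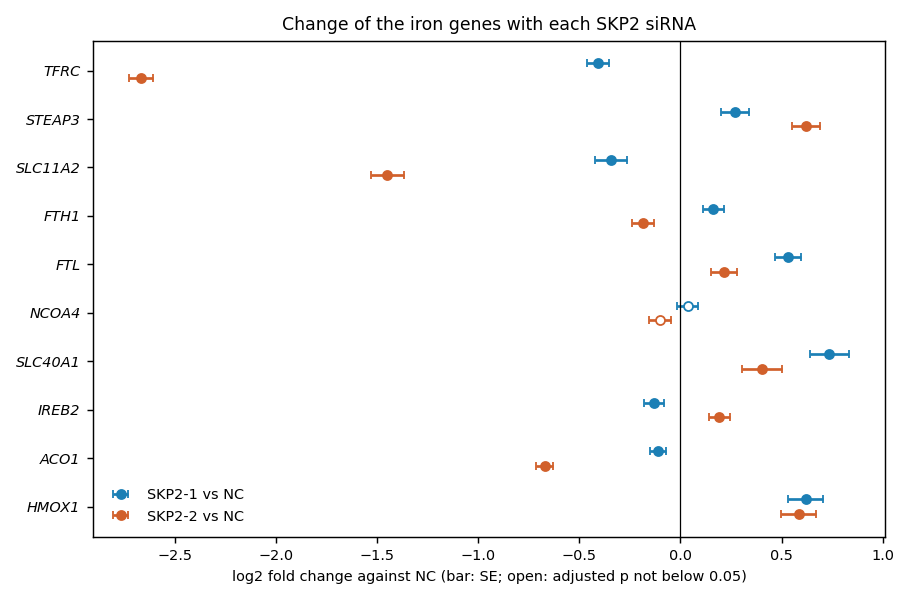
Log2 fold change against NC (horizontal axis) of each iron gene with SKP2-1 and SKP2-2; bars are SE and open points did not pass the threshold. TFRC (-2.67) and SLC11A2 (-1.45) with SKP2-2 lie furthest from 0, and NCOA4 passed with neither siRNA.

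The uptake genes did not move as 1 block. The largest change of the 10 was in TFRC, the transferrin receptor (ENSG00000072274, chromosome 3, 196027183 to 196082189). It stood at 576, 624.5 and 678 CPM in NC replicates 1 to 3, from 20481, 28249 and 32042 counts. With SKP2-1 it was 470, 466 and 481 CPM, and with SKP2-2 it was 99.7, 98.1 and 97.7 CPM, from 4043, 4328 and 4560 counts. Every SKP2-2 library lay below every SKP2-1 library, and these below every NC library. With SKP2-2 the receptor mRNA was 6.36 times lower than in NC (log2 fold change -2.67, SE 0.06, adjusted p = 4.87e-12). Of the 16575 genes, 13 fell further (0.0784%). With SKP2-1 it was 1.32 times lower (-0.41, SE 0.05, adjusted p = 4.12e-05), and 2509 genes lay further down (15.1%). The siRNAs differed by -2.26 (SE 0.06, adjusted p = 1.25e-11), SKP2-2 being lower. SKP2 itself was higher with SKP2-2 than with SKP2-1 (log2 difference 0.73, SE 0.08, adjusted p = 6.46e-06).

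SLC11A2 encodes DMT1, which carries ferrous iron out of endosomes and across the plasma membrane (ENSG00000110911, chromosome 12, 50979401 to 51028566). Its level was 61.7, 69.8 and 75.6 CPM in NC, 52.4, 53.6 and 57.4 CPM with SKP2-1, and 28.0, 23.8 and 24.1 CPM with SKP2-2. The 3 groups did not overlap and had the same order as for TFRC. The fall of SLC11A2 was 2.73-fold with SKP2-2 (-1.45, SE 0.08, adjusted p = 2.78e-08) and 1.27-fold with SKP2-1 (-0.34, SE 0.08, adjusted p = 0.00385). With SKP2-2, 174 genes (1.05%) fell further. The difference between the siRNAs was -1.11 (SE 0.08, adjusted p = 2.8e-07).

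STEAP3, the reductase that turns ferric into ferrous iron in endosomes, went the other way (ENSG00000115107, chromosome 2, 119223831 to 119265652). It was 153, 139 and 124 CPM in NC, 168, 167 and 166 CPM with SKP2-1, and 198, 217 and 223 CPM with SKP2-2. The groups did not overlap, and SKP2-2 was highest. STEAP3 rose 1.54-fold with SKP2-2 (0.62, SE 0.07, adjusted p = 7.89e-06) and 1.21-fold with SKP2-1 (0.27, SE 0.07, adjusted p = 0.00598). The siRNAs differed by 0.35 (adjusted p = 0.000891). The SKP2-1 call was lost when only SKP2-1 and NC were fitted (0.20, adjusted p = 0.16), without SKP2-2 replicate 1 (0.23, adjusted p = 0.067) and without NC replicate 3 and SKP2-2 replicate 1 (0.14, adjusted p = 0.0506). STEAP3 shares exon bases with STEAP3-AS1 on the other strand, a gene with 5 to 14 counts per library. STEAP3-AS1 was at 0.54 with SKP2-1 (adjusted p = 0.313) and rose with SKP2-2 (0.985, adjusted p = 0.0493).

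**Figure D3:**
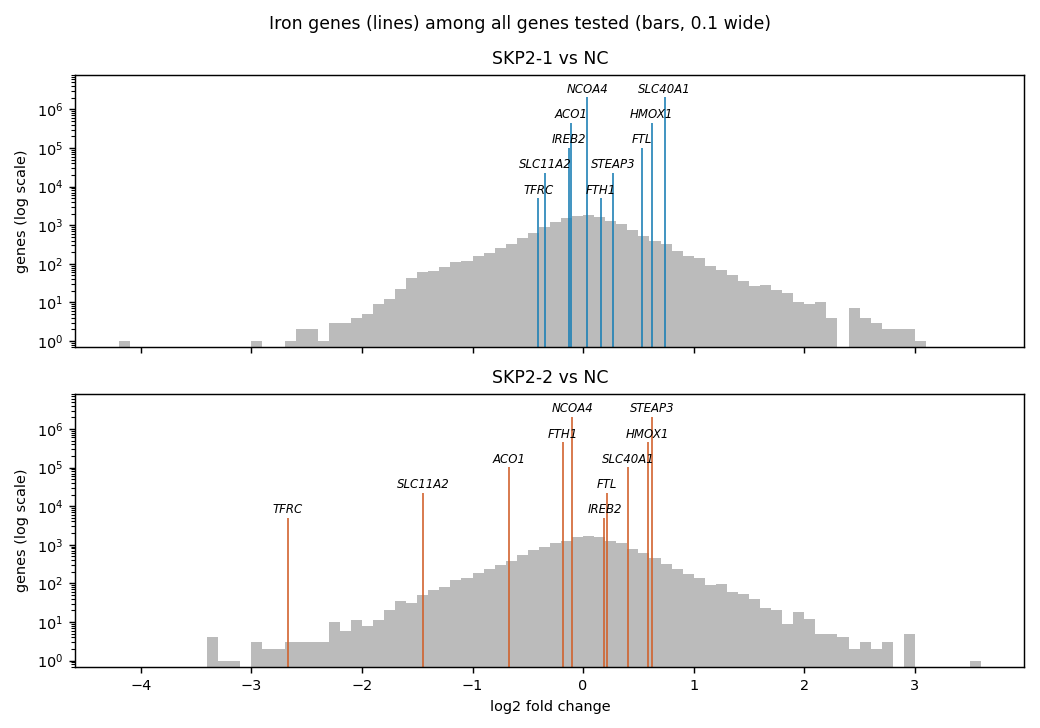
Number of genes (vertical axis, log scale) by log2 fold change against NC, in bars 0.1 wide, for all 16575 genes tested with SKP2-1 and SKP2-2; lines mark the 10 iron genes. With SKP2-1 they lie between -0.41 and 0.74, and with SKP2-2 TFRC and SLC11A2 lie out in the lower tail.

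Among the storage genes, FTL, the ferritin light chain, rose with both siRNAs and FTH1, the heavy chain that oxidizes the iron, rose with SKP2-1 and fell with SKP2-2. FTL (ENSG00000087086, chromosome 19, 48965301 to 48966878) was 1345, 1441 and 1521 CPM in NC, 1992, 2020 and 2222 CPM with SKP2-1, and 1723, 1737 and 1547 CPM with SKP2-2. Every knockdown library lay above every NC library, and SKP2-1 above SKP2-2. FTL rose 1.45-fold with SKP2-1 (0.53, SE 0.06, adjusted p = 1.82e-05) and less with SKP2-2 (0.22, SE 0.06, adjusted p = 0.0136). The SKP2-2 call was lost without SKP2-2 replicate 1 (0.15, adjusted p = 0.0869), without SKP2-2 replicate 2 (0.19, adjusted p = 0.0672), without NC replicate 3 and SKP2-2 replicate 1 (0.17, adjusted p = 0.0824) and with only SKP2-2 and NC fitted (0.19, adjusted p = 0.0531).

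FTH1 (ENSG00000167996, chromosome 11, 61959718 to 61967660) was 614, 629 and 648 CPM in NC, 704, 664 and 748 CPM with SKP2-1, and 546, 540 and 577 CPM with SKP2-2. The groups did not overlap, with NC between the siRNAs. FTH1 rose 1.12-fold with SKP2-1 (0.16, SE 0.05, adjusted p = 0.021) and fell 1.14-fold with SKP2-2 (-0.18, SE 0.05, adjusted p = 0.00963). The siRNAs differed by -0.35 (SE 0.05, adjusted p = 9.54e-05). The SKP2-1 rise lost its call without NC replicate 2 (adjusted p = 0.0657), SKP2-1 replicate 1 (0.0577) or SKP2-1 replicate 3 (0.125), with only SKP2-1 and NC fitted (0.131) and without NC replicate 3 and SKP2-2 replicate 1 (0.0652), at log2 changes of 0.16, 0.17, 0.12, 0.09 and 0.13. BEST1, the gene that shares FTH1 exon bases, had 37 to 99 counts per library. It rose with SKP2-1 (0.46, adjusted p = 0.0422) and was at 0.19 with SKP2-2 (adjusted p = 0.404).

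Both ferritin genes have processed pseudogenes, and reads from near-identical copies are uncertain. The 25 FTH1 pseudogenes together held 0.632% to 0.872% of the FTH1 count in the 9 libraries, and the 16 FTL pseudogenes 0.0666% to 0.0941% of the FTL count. With these counts added to the parents, FTH1 changed by 0.16 and -0.19 and FTL by 0.53 and 0.22 with SKP2-1 and SKP2-2.

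Within each library the ratio of receptor to light chain mRNA per kb sets an uptake gene against a storage gene, in RNA only. TFRC to FTL was 0.0477, 0.0482 and 0.0496 in NC, 0.0263, 0.0257 and 0.0241 with SKP2-1, and 0.00644, 0.00629 and 0.00703 with SKP2-2. The 3 groups were far apart against the spread within each. FTH1 to FTL was 0.197, 0.189 and 0.184 in NC, 0.153, 0.142 and 0.146 with SKP2-1, and 0.137, 0.134 and 0.161 with SKP2-2. NC stood above both siRNAs, which overlapped. If all counted FTH1 reads lay in the bases not shared with BEST1, the ratio of the group means would be 0.505, 0.39 and 0.382. Over all exons it was 0.19, 0.147 and 0.144, so its size depends on the counting. Over the 349 unshared bases of FTH1-201 it would be larger still. These ratios are a description, with no test.

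**Figure D4:**
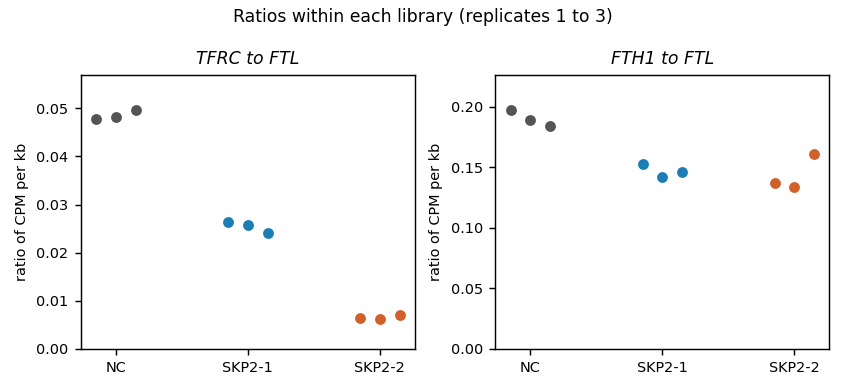
Ratio of CPM per kb of exon (vertical axes, from 0) of TFRC to FTL and of FTH1 to FTL in each library of NC, SKP2-1 and SKP2-2. TFRC to FTL falls in steps from NC to SKP2-2, and FTH1 to FTL, here over all FTH1 exons, is highest in the 3 NC libraries.

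NCOA4, the receptor that delivers ferritin to autophagosomes, passed against NC with neither siRNA (ENSG00000266412, chromosome 10, 46005088 to 46030714). It was 259, 287 and 301 CPM in NC, 290, 288 and 290.5 CPM with SKP2-1, and 271, 265 and 255.5 CPM with SKP2-2. Both siRNA groups overlapped NC. The log2 fold changes were 0.04 (SE 0.05, adjusted p = 0.619) and -0.10 (SE 0.05, adjusted p = 0.143). The SKP2-2 value passed without NC replicate 1 (-0.17, adjusted p = 0.00347), without SKP2-2 replicate 1 (-0.16, adjusted p = 0.013), without NC replicate 1 and SKP2-2 replicate 3 (-0.14, adjusted p = 0.0066), without NC replicate 3 and SKP2-2 replicate 1 (-0.13, adjusted p = 0.0242) and with a filter of 1 CPM (-0.13, adjusted p = 0.0256). Between the siRNAs NCOA4 differed by -0.14 (adjusted p = 0.0493), a call lost in 9 of 19 alternatives (adjusted p between 0.00273 and 0.153 over all 19). These were the libraries left out one at a time other than NC replicate 1, NC replicate 3 and SKP2-2 replicate 1, library size only, DESeq2 and the replicate block.

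SLC40A1 encodes ferroportin, the exporter of ferrous iron (ENSG00000138449, chromosome 2, 189560579 to 189583758). It had few reads, 133, 207 and 213 counts in NC, 298, 282 and 355 with SKP2-1, and 250, 239 and 255 with SKP2-2. Its level was 3.74, 4.58 and 4.51 CPM in NC, 7.03, 7.23 and 7.20 CPM with SKP2-1, and 6.17, 5.42 and 5.46 CPM with SKP2-2. All knockdown libraries lay above NC, and SKP2-1 above SKP2-2. Ferroportin mRNA rose 1.67-fold with SKP2-1 (0.74, SE 0.10, adjusted p = 3.36e-05) and 1.32-fold with SKP2-2 (0.41, SE 0.10, adjusted p = 0.00368). The siRNAs differed by -0.33 (adjusted p = 0.0101).

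HMOX1, the inducible heme oxygenase that frees iron from heme, rose with both siRNAs (ENSG00000100292, chromosome 22, 35380361 to 35394214). It was 15.8, 13.2 and 14.1 CPM in NC, 23.0, 20.5 and 22.5 CPM with SKP2-1, and 19.4, 21.9 and 23.2 CPM with SKP2-2. The knockdown libraries lay above NC and overlapped each other. The rise was 1.54-fold with SKP2-1 (0.62, SE 0.09, adjusted p = 5.4e-05) and 1.5-fold with SKP2-2 (0.58, SE 0.09, adjusted p = 7.78e-05). Their difference was -0.04 (SE 0.08, adjusted p = 0.755), which does not show that their effects are equal.

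Macrophages express both SLC40A1 and HMOX1, so macrophage markers are set beside these rises. Every library is labelled as MDA-MB-231 cells, and the labels name no macrophages. The 6 macrophage markers together gave 4.21 to 4.5 CPM in NC, 5.87 to 6.43 CPM with SKP2-1 and 6.79 to 7.21 CPM with SKP2-2. MARCO was at 0 in every library, CD163 was at 0 in NC, and CD68 had 0 to 8 counts per library. CD14 was 1.097 CPM in NC, 2.30 with SKP2-1 and 2.14 with SKP2-2. CSF1R was the largest part of the sum, at 3.03, 3.385 and 4.23 CPM in NC, SKP2-1 and SKP2-2. ITGAM was at 0.162, 0.306 and 0.531 CPM. Their part in the result was not tested.

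The iron regulatory proteins are encoded by ACO1 (IRP1, a cytosolic aconitase when it holds an iron-sulfur cluster) and IREB2 (IRP2, which is degraded when iron is ample). ACO1 (ENSG00000122729, chromosome 9, 32384603 to 32454769) was 314, 325 and 332 CPM in NC, 302, 297 and 301 CPM with SKP2-1, and 206, 201 and 202 CPM with SKP2-2. The SKP2-2 libraries stood well below the rest, and SKP2-1 lay just under NC. ACO1 fell 1.59-fold with SKP2-2 (-0.67, SE 0.04, adjusted p = 1.99e-08) and 1.08-fold with SKP2-1 (-0.11, SE 0.04, adjusted p = 0.0404). The siRNAs differed by -0.56 (SE 0.04, adjusted p = 9.76e-08).

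IREB2 (ENSG00000136381, chromosome 15, 78437431 to 78501456) was 98.1, 103 and 111 CPM in NC, 94.5, 94.6 and 95.9 CPM with SKP2-1, and 124, 116 and 117 CPM with SKP2-2. NC lay between the siRNAs, without overlap. IREB2 rose 1.14-fold with SKP2-2 (0.19, SE 0.05, adjusted p = 0.00622) and fell with SKP2-1 (-0.13, SE 0.05, adjusted p = 0.0495). The siRNAs differed by 0.32 (SE 0.05, adjusted p = 0.000133). The SKP2-1 calls of IREB2 and ACO1 were each lost in 9 of 19 alternatives, at log2 changes of -0.20 to -0.08 and -0.18 to -0.09 and adjusted p between 0.00152 and 0.156 and between 0.000929 and 0.14 over all 19. For both genes these were no filter, the replicate block and leaving out any 1 library other than NC replicate 1 and SKP2-2 replicate 1.

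Without NC replicate 1 and SKP2-2 replicate 3, all 10 genes but NCOA4 kept their direction and call in all 3 comparisons. TFRC was then at -0.48 with SKP2-1 and -2.72 with SKP2-2, SLC11A2 at -0.43 and -1.49, and STEAP3 at 0.33 and 0.66. FTH1 was at 0.13 and -0.23, FTL at 0.47 and 0.23, and SLC40A1 at 0.64 and 0.35. HMOX1 was at 0.68 and 0.60, ACO1 at -0.14 and -0.69, and IREB2 at -0.18 and 0.17. Without NC replicate 3 and SKP2-2 replicate 1, TFRC was at -0.40 and -2.68, SLC11A2 at -0.33 and -1.52, and STEAP3 at 0.14 and 0.53. FTH1 was at 0.13 and -0.22, FTL at 0.52 and 0.17, and SLC40A1 at 0.72 and 0.32. HMOX1 was at 0.55 and 0.57, ACO1 at -0.15 and -0.73, and IREB2 at -0.14 and 0.15. Of these, STEAP3 and FTH1 with SKP2-1 and FTL with SKP2-2 were no longer called.

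Another 83 genes of iron and heme handling were listed by role, of which 73 passed the filter. With SKP2-1, 22 rose and 19 fell (median log2 fold change 0.01, that of all genes being 0.02). With SKP2-2, 21 rose and 13 fell (median 0.03, also that of all genes). The shares called, 56.2% and 46.6%, stood beside 45.5% and 49.4% of all genes. By direction, 25% of all genes were higher and 20.5% lower with SKP2-1, and 25.2% and 24.1% with SKP2-2. The counts by role below are of few genes each and are a description, with no test.

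Of 10 tested genes of transferrin binding, ferrireduction and other uptake, 5 rose with SKP2-1 and none fell. With SKP2-2, 1 rose and 4 fell. The share called was 50% with each siRNA, near the 45.5% and 49.4% of all genes. LCN2, a lipocalin that binds iron carried by siderophores, was 4.38 ± 0.316 CPM in NC, 6.02 ± 0.163 with SKP2-1 (0.45, adjusted p = 0.00469) and 0.945 ± 0.19 with SKP2-2 (-2.21, adjusted p = 2.54e-08). SLC39A14, which imports iron not bound to transferrin, rose with SKP2-1 (0.14, adjusted p = 0.0315) and fell with SKP2-2 (-0.22, adjusted p = 0.00208). Its relative SLC39A8 fell with SKP2-2 (-0.41, adjusted p = 1.01e-05) and was at 0.07 with SKP2-1 (adjusted p = 0.278). STEAP1 rose with SKP2-2 (0.26, adjusted p = 0.0136), and STEAP2 rose with SKP2-1 (0.23, adjusted p = 0.0398). TFR2, the second transferrin receptor, had 15 to 38 counts per library and passed with neither.

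Of 6 tested genes of iron chaperoning and ferritin turnover, 1 rose and 3 fell with SKP2-1, and 2 rose and 2 fell with SKP2-2. That is 66.7% called with each, against 45.5% and 49.4% of all genes. TAX1BP1, an autophagy adaptor that works with NCOA4 in ferritin breakdown, was 190 ± 14.9 CPM in NC, 210 ± 2.1 with SKP2-1 (0.14, adjusted p = 0.0445) and 87.9 ± 2.13 with SKP2-2 (-1.11, adjusted p = 3.22e-09). ATG5, needed to build autophagosomes, fell with SKP2-1 (-0.20, adjusted p = 0.00394) and rose with SKP2-2 (0.27, adjusted p = 0.000407). PCBP2, a chaperone of iron, fell with SKP2-1 (-0.26, adjusted p = 0.00369).

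Of 6 regulators, 4 rose with SKP2-1 and none fell, and 1 rose and 1 fell with SKP2-2. Shares called were 66.7% and 33.3%, against 45.5% and 49.4% of all genes. BACH1, the heme-sensing repressor of HMOX1 and ferritin genes, rose with both, from 92.2 ± 8.77 CPM to 164 ± 4.53 (0.83, adjusted p = 2.41e-07) and 156 ± 7.73 (0.76, adjusted p = 4.9e-07). NFE2L2, which encodes the activator NRF2 of the same genes, was at 0.04 and -0.07 (adjusted p = 0.488 and 0.222). FBXL5, the F-box protein that targets IRP2 for degradation, rose with SKP2-1 (0.12, adjusted p = 0.0323) and was at -0.04 with SKP2-2 (adjusted p = 0.423). EPAS1, which encodes HIF-2α and is itself under iron regulatory proteins, was 134 ± 5.53 CPM in NC, 163 ± 2.03 with SKP2-1 (0.29, adjusted p = 0.000437) and 59.1 ± 3.81 with SKP2-2 (-1.18, adjusted p = 1.44e-09).

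Of 9 tested heme synthesis genes, 4 rose and 2 fell with SKP2-1, and 6 rose and 1 fell with SKP2-2. That is 66.7% and 77.8% called, against 45.5% and 49.4% of all genes. CPOX, which makes protoporphyrinogen, rose with both (0.66, adjusted p = 3.59e-08, and 0.91, adjusted p = 1.75e-09). FECH, which places iron into protoporphyrin as the last step, fell with both, from 36.3 ± 2.26 CPM to 26.5 ± 0.536 (-0.46, adjusted p = 2.67e-05) and 17.6 ± 0.417 (-1.04, adjusted p = 1.17e-08). Of 9 tested genes of heme transport and breakdown, 4 rose and 1 fell with SKP2-1, and 6 rose and none fell with SKP2-2. Their called shares were 55.6% and 66.7%, set against the same shares of all genes. ABCG2, an exporter of porphyrins and drugs, rose with both (1.21, adjusted p = 5.53e-09, and 0.79, adjusted p = 2.58e-07), as did FLVCR2 (1.53, adjusted p = 1.27e-06, and 1.39, adjusted p = 2.69e-06), from 60 to 86 counts in NC. FLVCR1, its relative, fell with SKP2-1 (-0.42, adjusted p = 0.000326) and rose with SKP2-2 (0.57, adjusted p = 1.67e-05).

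Of 21 tested genes of mitochondrial iron and iron-sulfur assembly, 4 rose and 9 fell with SKP2-1, and 3 rose and 4 fell with SKP2-2. Shares called were 61.9% and 33.3%, against 45.5% and 49.4% of all genes. SLC25A28, a mitochondrial iron importer, fell with both (-0.38, adjusted p = 0.00155, and -0.78, adjusted p = 3.64e-06), and so did HSPA9, the chaperone of cluster transfer (-0.60, adjusted p = 2.64e-07, and -0.30, adjusted p = 0.000123). NFS1, the sulfur donor, rose with both (0.18, adjusted p = 0.0135, and 0.38, adjusted p = 4.64e-05). Of 10 genes of cytosolic cluster assembly, 4 fell and none rose with SKP2-1, and 2 rose and 1 fell with SKP2-2. Here 40% and 30% were called, below the shares of all genes. MMS19, which hands clusters to DNA repair and replication enzymes, fell with SKP2-1 (-0.17, adjusted p = 0.00289) and rose with SKP2-2 (0.39, adjusted p = 2.16e-06), and GLRX3 fell with both (-0.24, adjusted p = 0.000579, and -0.13, adjusted p = 0.0268).

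**Figure D5:**
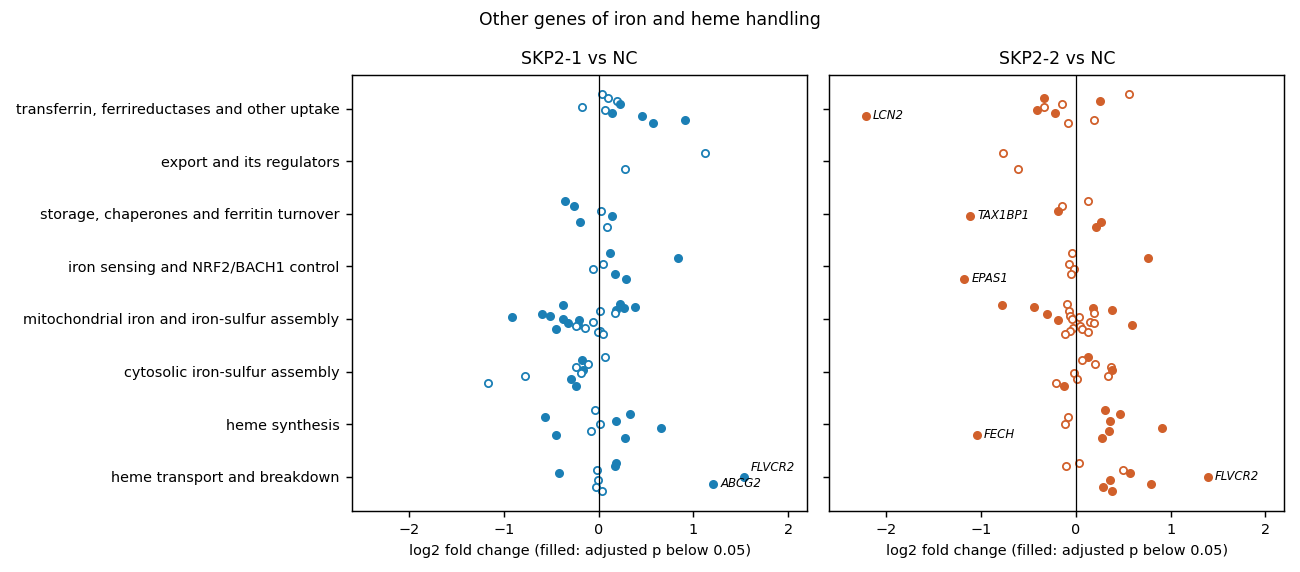
Log2 fold change against NC (horizontal axes) of the 73 tested genes of iron and heme handling outside the first 10, by role (rows), with SKP2-1 (left) and SKP2-2 (right); filled points passed the threshold. Called changes of more than 1 are LCN2, EPAS1, TAX1BP1 and FECH (lower) with SKP2-2, ABCG2 with SKP2-1, and FLVCR2 with both siRNAs (higher).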

How the data were processed

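Values are raw counts per Ensembl gene that the authors deposited, 1 file per library, and the submitters' processing notes list HTSeq 0.6.1 and STAR, beside Trim Galore 0.4.1 and FastQC 0.11.2 and, last, DESeq2 1.16.1. Build, annotation and strand setting are not given in the sources used here. Reads in no gene (5.34% to 5.92%) and ambiguous reads (3.87% to 3.97%) were left out of totals. The line for reads that align to several places is 0 in every file.

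Names came from the supplied table (57754 genes) or GENCODE 29 (521), and coordinates, exon lengths and transcripts from GENCODE 29. Genes were kept by filterByExpr (minimum count 10, total 15), scaled by TMM and fitted over all 9 libraries with edgeR 4.0.16 in R 4.3.3 (quasi-likelihood, robust, group only). Tests were two-sided, adjusted by Benjamini-Hochberg over 16575 genes at 0.05. The SE is the log2 fold change divided by the square root of F. Levels per length divide CPM by the union of exons. The fit was also run on simulated counts, drawn independently for each library with the same setting of spread for every gene. Those counts held no deviations shared between libraries, so that run says nothing about the shared deviations described above.

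All 10 iron genes are named. From each of the 8 further lists, genes of at least 2 CPM were named by the smallest larger adjusted p of both comparisons with NC (up to 4), and SLC39A8, SLC39A14, FBXL5, BACH1, NFE2L2, EPAS1, TF, TFR2, HAMP, CP, HEPH and FTMT in any case. The result for 1 gene named by this rule is not reported here. Members and lists were chosen with earlier results of these data known. Alternatives were DESeq2 1.42.0, only the compared groups, scaling by RLE or by library size, a filter of 1 CPM in 3 libraries or none, the replicate block, each library left out, and pseudogene counts added. Leaving out NC replicate 1 with SKP2-2 replicate 3 or NC replicate 3 with SKP2-2 replicate 1, and counting the further lists under each alternative, was chosen after seeing the data.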

Additional observations from a re-analysis of the deposited data

Results flagged for a closer look

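Several genes passed against NC with both siRNAs in opposite directions and also differed between the siRNAs by the edgeR test (log2 difference, SKP2-2 minus SKP2-1). Among the 10 iron genes these were FTH1 (-0.35, adjusted p = 9.54e-05; 0.16 and -0.18 against NC) and IREB2 (0.32, adjusted p = 0.000133; -0.13 and 0.19 against NC). For IREB2 and FTH1 the SKP2-1 side loses its call in several alternatives, as given above.

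Among the genes of the further lists described above, those lower with SKP2-2 were LCN2 (-2.67, adjusted p = 3.49e-09), EPAS1 (-1.46, adjusted p = 1.78e-10), TAX1BP1 (-1.25, adjusted p = 9.09e-10) and SLC39A14 (-0.36, adjusted p = 3.9e-05). Those higher were FLVCR1 (1.00, adjusted p = 1.04e-07), MMS19 (0.55, adjusted p = 7.04e-08) and ATG5 (0.46, adjusted p = 3.02e-06).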

How the results depend on the processing

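Of 570 values of the 10 genes under the alternatives, 521 kept their direction and their side of the threshold, 39 lost the call, 5 gained it and 5 turned direction. None of those that turned was called in the fit reported. They were NCOA4 with SKP2-1, at -0.03 with only the compared groups, -0.036 without NC replicate 1 and -0.036 without both NC replicate 1 and SKP2-2 replicate 3, and HMOX1 between the siRNAs, at 0.024 without SKP2-2 replicate 1 and 0.024 without both NC replicate 3 and SKP2-2 replicate 1. Leaving out 1 library at a time gave -0.036 to 0.084 for the former and -0.094 to 0.024 for the latter. TFRC and SLC11A2 kept every call, at -2.73 to -2.61 and -1.57 to -1.38 with SKP2-2. Leaving out 1 library gave 6 to 9 called of the 10 genes with SKP2-1, 8 to 10 with SKP2-2 and 8 to 9 between the siRNAs, from 6429 to 8118, 7190 to 9149 and 7160 to 9414 genes in all. Of the 83 further genes these fits called 28 to 42, 31 to 45 and 39 to 52. With only SKP2-1 and NC fitted, 44% of the called genes were higher, against 55% in the fit reported. The replicate block called 7, 9 and 8 of the 10 genes and 6818, 7501 and 7500 genes in all. It ended the SKP2-1 calls of IREB2 (adjusted p = 0.0953) and ACO1 (0.0862) and the call of NCOA4 between the siRNAs (0.0965), and no other call of the 10 genes. Same-numbered libraries did not deviate together (r from -0.712 to 0.099 over 9 pairs, none above 0.1, and 1 of 9 libraries closest to its own number), so the numbers were not taken as pairs. The cause of these shifts was not tested.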

Other observations

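Of 7 listed genes of iron export and its regulators, 2 passed the filter (CP and BMP6) and neither was called against NC. HAMP, which encodes the liver hormone hepcidin, had 2 counts in 1 SKP2-2 library and 0 in the others. HJV, HEPH, a ferroxidase that works with ferroportin, and FTMT, mitochondrial ferritin, had 0 counts in every library, which allows up to 0.0602 to 0.0846 CPM per library for counting error only. TF, transferrin itself, had 0 to 3 counts per library. CP, the ferroxidase of plasma, had 2, 10 and 5 counts in NC, 10, 14 and 14 with SKP2-1 and 5, 2 and 3 with SKP2-2. It passed with neither siRNA (adjusted p = 0.062 and 0.315) and was lower with SKP2-2 than with SKP2-1 (log2 difference -1.89, SE 0.51, adjusted p = 0.00751). BMP6, an inducer of hepcidin, also was lower with SKP2-2 than with SKP2-1 (-0.89, SE 0.30, adjusted p = 0.026). It is not among the genes named by the rule and was chosen after its values were seen.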
